A study of Mus musculus with 16 samples.

Results

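Sialidases, the enzymes that cut sialic acid from glycoproteins and glycolipids, were followed here together with the genes that carry and break down the freed sugar. The 7 genes, listed by symbol and matched to Ensembl IDs, were Neu1, Neu2, Neu3, Slc17a5, Siae, Npl and Renbp, out of 36118 IDs in the deposited tables, and all 7 were found and passed the count filter in both tissues. As background, sialic acids cap the outer ends of many glycans, and they are removed in the lysosome, in the cytosol and at the plasma membrane by different sialidases. Sialic acid freed in the lysosome leaves through an exporter and is then either built into new glycans or cleaved to pyruvate and an acylated mannosamine. In the gut, both shed host glycans and food supply sialic acid, and in the liver the sialic acid caps influence how long many serum glycoproteins circulate.

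The study gave male APCMin/+ mice, which carry the Min allele of Apc and form intestinal adenomas, drinking water that held Neu5Gc (N-glycolylneuraminic acid), one of the sialic acids, which mice make themselves and humans take in from food. The mice were 8 weeks old and drank for 14 days. The low group, named control by the labels, received 0.0127 mg/ml and the high group, named treatment, 0.2535 mg/ml, so every mouse received Neu5Gc and no group drank plain water. The colorectum is represented by 4 low and 6 high libraries and the liver by 3 low and 3 high libraries, each made from bulk tissue RNA. The design text of the series gives 6 control and 4 treated mice instead. Groups here follow the labels of the samples, and if the colorectum names were exchanged every colorectum direction below would turn. Nothing in the labels says whether libraries of 1 group came from separate mice, so p-values measure the spread between these libraries.

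Libraries held 46.1 to 73.9 estimated counts, in units of 1e6, in the colorectum. In the liver they held 47.5 to 55.9 in low-dose and 68.8 to 86.1 in high-dose libraries, with no overlap. Several libraries stood apart in markers of other tissues. In low colorectum library 4, 16 of 16 kidney tubule markers reached 1 TPM (transcripts corrected for length and scaled to a fixed total per library) and summed to 20246 TPM, against 2.79 to 73.4 in the other 9 colorectum libraries. Pancreatic acinar markers summed to 6478 TPM in low colorectum library 3 and to 132 to 691 in the other 9. Transcripts of 7 posterior HOX genes, a list added after values were seen, summed to 31.9 to 79.1 TPM in low-dose and 288 to 459 in high-dose colorectum libraries. All 6 that could be tested passed upward, against 7.29% of all genes. In the liver, 12 skeletal muscle markers summed to 3.44 to 15.7 TPM in low-dose and 175 to 237 in high-dose libraries. Markers of the labelled tissues were present: epithelial markers summed to 7408 to 13884 TPM in the colorectum and hepatocyte markers to 51778 to 68254 in the liver, and 10 of 10 of each averaged at least 1 TPM there. Fewer cells of a type and less RNA per cell cannot be told apart in bulk tissue, and this holds for every value below.

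Neu3 was the member with the clearest difference between doses, and its direction was opposite in the 2 tissues: higher with high Neu5Gc in the colorectum and lower in the liver. Neu3 (ENSMUSG00000035239) encodes the plasma membrane sialidase, which acts mainly on gangliosides, the sialylated glycolipids of the outer membrane leaflet. The 250 bases before its RefSeq start site, at chr7:99828418-99828667 of GRCm38.p6 on the minus strand, are shown 5′ to 3′ because the gene behind them moved in both tissues, with the GC box GGGCGG in capitals.

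Neu3: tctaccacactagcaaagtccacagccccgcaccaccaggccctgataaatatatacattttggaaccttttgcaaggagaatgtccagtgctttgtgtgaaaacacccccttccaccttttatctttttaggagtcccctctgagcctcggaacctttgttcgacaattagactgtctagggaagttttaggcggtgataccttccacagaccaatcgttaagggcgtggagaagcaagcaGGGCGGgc

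In the low colorectum libraries 1 to 4, Neu3 was at 1.18, 0.815, 1.41 and 0.831 TPM. In the 6 high libraries it ran from 2.85 to 5.48 TPM with a median of 4.2. Every high library therefore lay above every low one, and the gap ran from 1.41 to 2.85 TPM. The rise was 4.24-fold (log2 change 2.08, SE 0.25, adjusted p = 4.3e-04, edgeR quasi-likelihood test with Benjamini-Hochberg adjustment over 17961 genes), which ranked 121 by p. In that comparison 15.5% of all genes passed the test, 7.29% upward and 8.21% downward, and the TPM of the groups did not overlap for 11.4%. In the liver, Neu3 was at 1.74, 1.35 and 1.22 TPM in the low libraries and at 0.392, 0.437 and 0.313 TPM in the high libraries. The high liver libraries were all below the low ones, and the fall was 3.31-fold (log2 change -1.73, SE 0.23, adjusted p = 0.00307 by the same test over 15522 genes, rank 149). Of all liver genes 6.47% passed, 3.15% upward and 3.32% downward, and 33.5% had groups that did not overlap.

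The change in the colorectum minus that in the liver was itself tested in 1 fit of all 16 libraries. For Neu3 this difference was 3.83 on the log2 scale (SE 0.37, adjusted p = 3.8e-05, edgeR quasi-likelihood test), rank 11 of 18703 genes by p, where 8.04% of genes passed. Neu3 was 1 of 46 genes called higher in the colorectum and lower in the liver among 15076 genes tested in both, which is 4.24% of the 1085 colorectum rises and 9.16% of the 502 liver falls. It was also 1 of the 8 that moved at least 2-fold in each tissue. Neu3 passed in all 20 fits of the colorectum, all 15 of the liver and all 25 of the difference, those that left out 1 library or used other tools included. The log2 change ran from 1.35 to 2.30 in the colorectum and from -1.85 to -0.81 in the liver, both smallest in size on log2(TPM + 1), a scale that shrinks changes of low genes. Without low colorectum libraries 3 and 4, which carried the pancreatic and the kidney markers, the colorectum change was 2.24 (adjusted p = 6.0e-04). Without low liver library 1 or high liver library 1, which carried pancreatic acinar markers at 11980 and 4912 TPM, the liver change was -1.49 and -1.70 (adjusted p = 0.00808 and 0.0175). The posterior HOX transcripts in the colorectum, and the muscle transcripts and the depth in the liver, separated the same groups, and their part in the Neu3 result was not tested.

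**Figure D1:**
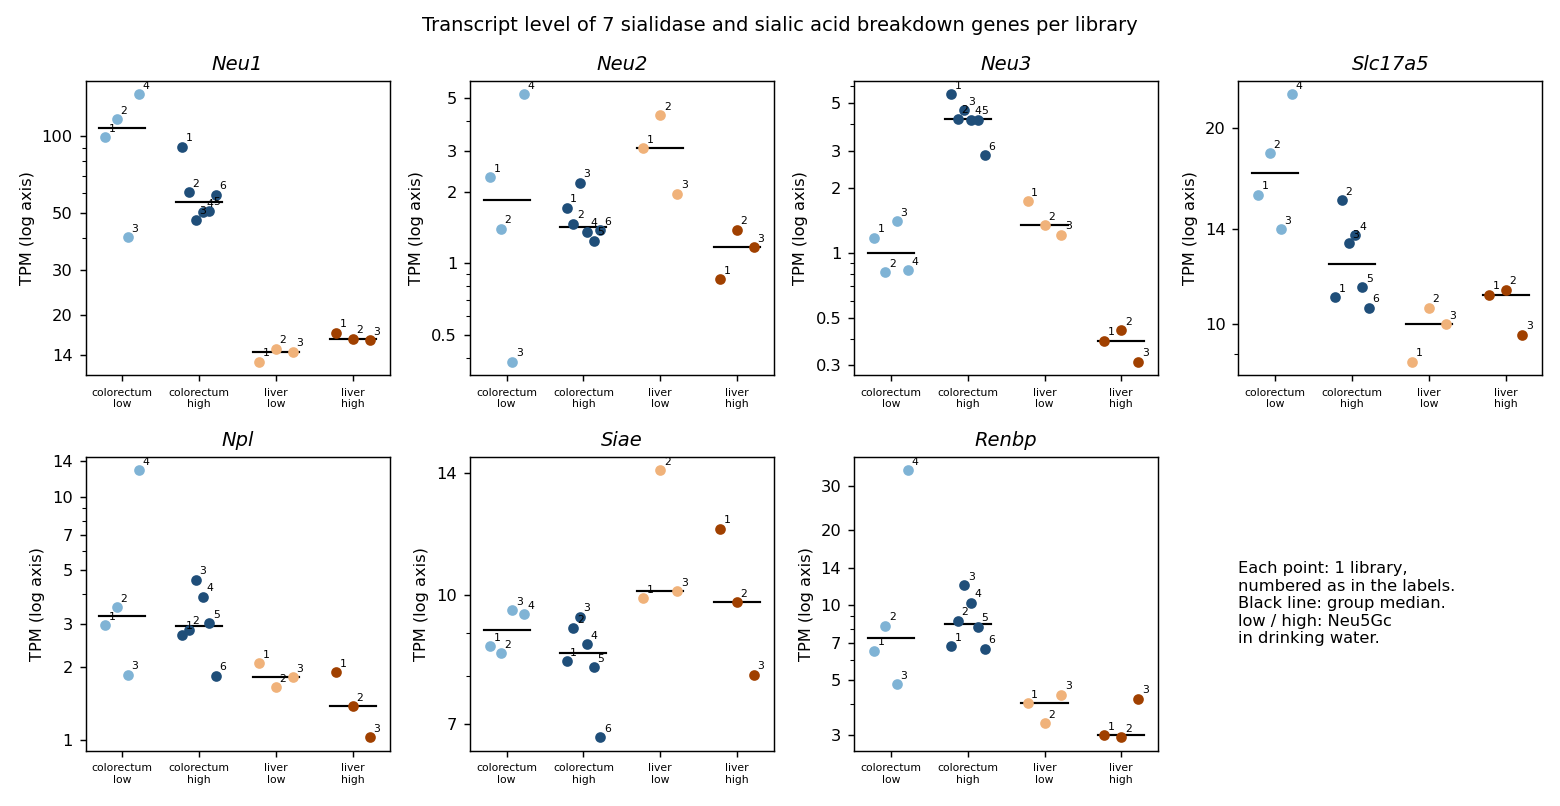
TPM of the 7 genes in each of the 16 libraries, on a log axis, with library numbers beside the points and the group median as a black line. Neu3 separates low from high in both tissues, in opposite directions, and low colorectum library 4 stands high for Npl at 12.9 TPM and Renbp at 34.6 TPM.

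Neu1 had the highest level of the 7 genes in all 4 groups. Its change with high Neu5Gc did not pass the test in the colorectum, and it rose by a small amount in the liver. Neu1 (ENSMUSG00000007038) encodes the lysosomal sialidase, which works in a complex with the protective protein cathepsin A and beta-galactosidase. Its upstream bases lie at chr17:34931003-34931252 of GRCm38.p6 on the plus strand, and hold the GC box as its reverse complement CCGCCC, in capitals.

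Neu1: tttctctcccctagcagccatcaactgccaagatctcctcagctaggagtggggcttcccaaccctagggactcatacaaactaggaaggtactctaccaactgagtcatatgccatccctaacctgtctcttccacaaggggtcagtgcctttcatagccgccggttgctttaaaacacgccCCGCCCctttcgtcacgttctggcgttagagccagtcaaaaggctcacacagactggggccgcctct

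Low colorectum libraries 1 to 4 had 99.3, 117, 40.3 and 146 TPM of Neu1. The high libraries ran from 47.2 to 91.1 TPM with a median of 55.3. Low library 3 was below all the high libraries and the other low libraries above all of them, so the groups overlapped through 1 library. The log2 change was -0.64 (SE 0.32, adjusted p = 0.189, edgeR quasi-likelihood test). Without low library 3, the one with pancreatic acinar transcripts, it was -0.89 with adjusted p = 0.036, the only 1 of 20 colorectum fits in which Neu1 passed, and without low library 4 it was -0.36. In the liver, Neu1 was at 13.2, 14.8 and 14.4 TPM in low-dose and 17.1, 16.2 and 16 TPM in high-dose libraries. The liver groups did not overlap, but the gap was small: the rise was 1.35-fold (log2 change 0.43, SE 0.09, adjusted p = 0.0225, edgeR quasi-likelihood test). That call was lost without low liver library 1 (adjusted p = 0.0715), without low library 3 (0.0757) and without high library 2 (0.0846), while the log2 change stayed between 0.39 and 0.45. On log2(TPM + 1), where the median of all liver genes was itself shifted to -0.12, the change was 0.21 with adjusted p = 0.202. The difference between tissues was -1.05 (SE 0.44, adjusted p = 0.154) and passed without low colorectum library 3 (-1.33, adjusted p = 0.0177).

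Neu2 was spread widely in the colorectum, where its change with dose did not pass the test, and fell with high Neu5Gc in the liver close to the threshold. Neu2 (ENSMUSG00000079434) encodes the cytosolic sialidase. The low colorectum libraries had 2.31, 1.40, 0.385 and 5.18 TPM, and the high ones 1.25 to 2.19 TPM with a median of 1.42. Low libraries 3 and 4 were the lowest and the highest of all 10, so the high group lay inside the low one. The log2 change was -0.51 (SE 0.52, adjusted p = 0.525), and without low library 4 it turned to 0.33 (adjusted p = 0.63). In the liver the low libraries had 3.06, 4.23 and 1.97 TPM and the high ones 0.858, 1.39 and 1.17 TPM. These groups did not overlap, and Neu2 fell by 1.22 on the log2 scale (SE 0.31, adjusted p = 0.0488, edgeR quasi-likelihood test). The call held without low liver library 3 (adjusted p = 0.0297) and was lost without low library 1 or 2 (both 0.123) and without high library 1 (0.124), 2 (0.103) or 3 (0.0934). The difference between tissues, 0.72 (SE 0.77, adjusted p = 0.589), did not pass.

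The rounded counts behind Neu2 were 21 to 362 per colorectum library and 62 to 223 per liver library. On the GENCODE M21 annotation Neu2 overlaps Ngef, a guanine nucleotide exchange factor gene, on the opposite strand. The library strandedness is not stated, so reads from the 2 genes cannot be told apart. Ngef was at 5.45 to 8.69 TPM in low-dose and 7.86 to 9.2 in high-dose liver libraries (log2 change 0.58, SE 0.17, adjusted p = 0.0769), a change of the other sign than that of Neu2. In the colorectum Ngef was lowest in low library 3, at 11.5 TPM, and highest in low library 4, at 22.2 TPM, as Neu2 was. The pseudogene Gm17181 overlaps Neu2 on the same strand and reached at most 1.49 TPM. The part of either gene in the Neu2 values was not tested. Neu4, the remaining mammalian sialidase and no member of the set, reached at most 0.0694 TPM and 15 counts in any library.

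The make-up of the sialidase transcripts differed between doses in both tissues. Neu3 made up 0.546% to 3.34% of the summed TPM of Neu1, Neu2 and Neu3 in the low colorectum libraries and 4.49% to 8.55% in the high ones. In the liver it made up 6.61% to 9.66% in low-dose and 1.79% to 2.42% in high-dose libraries. Neu2 took 11.2% to 20.8% in low-dose and 4.68% to 7.71% in high-dose liver libraries, and Neu1 the rest, 72.6% to 81.8% at low and 89.9% to 93.2% at high dose. The sum itself overlapped in the liver, at 17.5 to 20.4 TPM in low-dose and 17.5 to 18.3 in high-dose libraries. In the colorectum the sum was 103, 119, 42.1 and 152 TPM in the low libraries and 54.0 to 98.3 in the high ones, and Neu1 made up at least 87.4% of it in every library. These shares rest on the same values as the tests above and were given no test of their own.

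**Figure D2:**
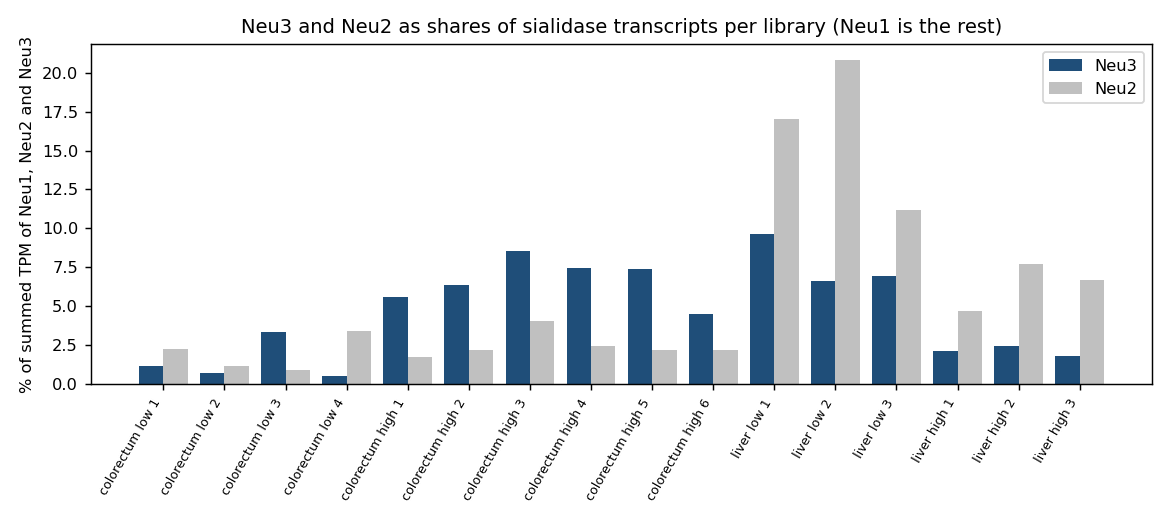
Bars give Neu3 and Neu2 as a percentage of the summed TPM of Neu1, Neu2 and Neu3 in each of the 16 libraries, with Neu1 as the remainder. The Neu3 share is 4.49% to 8.55% in the high and at most 3.34% in the low colorectum libraries, and 1.79% to 2.42% in the high against at least 6.61% in the low liver libraries.

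Slc17a5 had small changes with dose, negative in the colorectum and positive in the liver. Neither passed the test, while the difference between the tissues did. Slc17a5 (ENSMUSG00000049624) encodes sialin, the lysosomal membrane carrier that exports free sialic acid. Its upstream bases, at chr9:78588046-78588295 of GRCm38.p6 on the minus strand, are shown beside those of Neu1 because the 2 lysosomal genes had changes of the same sign in each tissue, with GGGCGG and its reverse complement CCGCCC in capitals.

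Slc17a5: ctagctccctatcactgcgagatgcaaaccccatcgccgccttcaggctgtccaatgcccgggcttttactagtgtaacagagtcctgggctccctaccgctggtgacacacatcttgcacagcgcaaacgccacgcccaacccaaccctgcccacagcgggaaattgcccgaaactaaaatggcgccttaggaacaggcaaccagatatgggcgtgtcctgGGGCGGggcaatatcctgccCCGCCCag

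The low colorectum libraries had 15.8, 18.3, 14.0 and 22.5 TPM of Slc17a5. The high ones had 10.6 to 15.5 TPM with a median of 12.4, and overlapped the low group through low library 3 and high library 2. The log2 change was -0.42 (SE 0.14, adjusted p = 0.0601, edgeR quasi-likelihood test), with adjusted p = 0.0472 without low library 1 and 0.0331 without low library 3. In the liver the low libraries had 8.77, 10.6 and 10 TPM and the high ones 11.1, 11.3 and 9.64 TPM, which overlap (log2 change 0.33, SE 0.09, adjusted p = 0.0618). The difference, colorectum minus liver, was -0.74 (SE 0.18, adjusted p = 0.0233). It was lost without low liver library 1 (adjusted p = 0.0608), low liver library 3 (0.0644) or high liver library 2 (0.0649), with values of -0.72, -0.72 and -0.69, and on log2(TPM + 1) it was -0.56 with adjusted p = 0.124.

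In the 300-base RefSeq windows, from 250 bases before to 50 after each start site, GGGCGG on either strand was found once for Neu1 and Neu3 and at 2 places for Slc17a5 and Renbp. Of 32851 such mouse windows 35.7% hold it. The E-box CACGTG, which reads the same on both strands and was searched because it lies within the site bound by the lysosomal regulator TFEB, was found among the members in the window of Npl alone, and 7.15% of all windows hold it. Windows were found for 6 of the 7 members, with 3 windows for Neu2. A match is a string of letters in a window and was not measured as a binding site.

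Npl, the enzyme that cleaves freed sialic acid, and Renbp, an epimerase of the amino sugars after that step, followed each other from library to library in the colorectum. Their changes with dose did not pass the test in either tissue. Npl (ENSMUSG00000042684) encodes N-acetylneuraminate pyruvate lyase, which splits the sugar into pyruvate and an acylated mannosamine. Renbp (ENSMUSG00000031387) encodes the renin binding protein, which is the epimerase between N-acetylmannosamine and N-acetylglucosamine. Npl was at 2.97, 3.53, 1.86 and 12.9 TPM in the low colorectum libraries and at 1.84 to 4.57 TPM with a median of 2.94 in the high ones. Renbp was at 6.54, 8.25, 4.81 and 34.6 TPM in low-dose and 6.67 to 12.0 TPM with a median of 8.40 in high-dose colorectum libraries. For both genes low library 4 lay above all other libraries and the rest of the groups overlapped. In that library Renbp was 5.3 times, Npl 4.63 times and Neu2 3.8 times the mean of the other low libraries, against 1.71 for Neu1, 1.41 for Slc17a5, 1.06 for Siae and 0.734 for Neu3. The same library held the kidney tubule transcripts, whose part in these values was not tested.

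The colorectum log2 change was -0.72 for Npl (SE 0.48, adjusted p = 0.327) and -0.60 for Renbp (SE 0.50, adjusted p = 0.43). Without low library 4 the values turned to 0.28 (adjusted p = 0.518) and 0.52 (adjusted p = 0.139), so their sign rests on that library. In the liver Npl was at 2.07, 1.65 and 1.82 TPM in low-dose and 1.91, 1.38 and 1.03 TPM in high-dose libraries, with overlap (log2 change -0.19, SE 0.24, adjusted p = 0.701). Renbp in the liver was at 4.04, 3.36 and 4.36 TPM in low-dose and 3.01, 2.95 and 4.2 TPM in high-dose libraries (log2 change 0.01, SE 0.23, adjusted p = 0.991). High liver library 3 had the lowest Npl of the liver, 1.03 TPM, but the highest Renbp of its group, 4.2 TPM. Over the 10 colorectum libraries the Pearson r between the 2 genes on log2(CPM + 1), where CPM is counts scaled to a fixed total per library, was 0.974, the highest of the 21 pairs of members, and 0.887 without low library 4, as a description of libraries that share their source tissue.

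**Figure D3:**
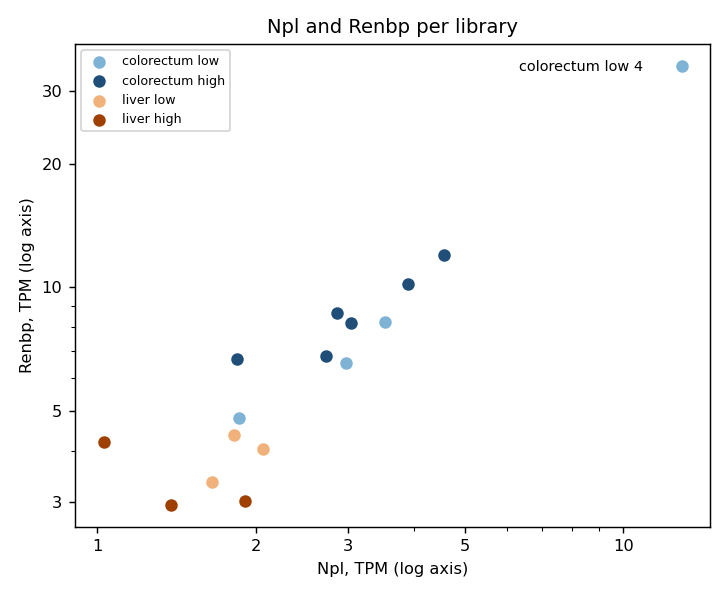
Renbp against Npl in TPM, both on log axes, with 1 point for each of the 16 libraries coloured by group. Low colorectum library 4 sits apart at 12.9 TPM of Npl and 34.6 TPM of Renbp, and the low and high groups mix among the other points of each tissue.

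Siae had the smallest colorectum change of the 7 genes and did not pass in either tissue. Siae (ENSMUSG00000001942) encodes sialic acid acetylesterase, which removes O-acetyl groups from sialic acid. It was at 8.68, 8.51, 9.58 and 9.47 TPM in the low colorectum libraries and at 6.75 to 9.41 TPM with a median of 8.52 in the high ones, with wide overlap. In the liver it was at 9.90, 14.1 and 10.1 TPM in low-dose and 12.0, 9.79 and 8.02 TPM in high-dose libraries, again overlapping. The log2 change was -0.03 in the colorectum (SE 0.11, adjusted p = 0.859) and 0.01 in the liver (SE 0.14, adjusted p = 0.976). Siae overlaps Spa17 and Tbrg1 on the opposite strand. Tbrg1 was far the more abundant, at 68.4 to 115 TPM in the colorectum, and reads from the overlaps cannot be told apart by gene. Casd1, the enzyme that adds O-acetyl groups to sialic acid, did change: it rose in the colorectum from 24.2 to 38.6 TPM in the low to 44.8 to 64.5 in the high libraries (log2 change 0.79, SE 0.15, adjusted p = 0.00664, edgeR quasi-likelihood test). In the liver Casd1 changed by 0.29 (SE 0.12, adjusted p = 0.207), and the difference between tissues, 0.52, did not pass (adjusted p = 0.163).

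Counted together, 1 of the 7 genes passed in the colorectum (Neu3 upward), against 15.5% of all genes, and 3 passed in the liver (Neu1 upward, Neu2 and Neu3 downward), against 6.47%. The median log2 change of the 7 was -0.51 in the colorectum, where that of all genes was -0.02, and 0.01 in the liver, where that of all genes was 0.00. In the colorectum 6 of the 7 values were negative, but for Neu2, Npl and Renbp the sign turned without low library 4. For the difference between tissues 2 passed, Neu3 and Slc17a5, against 8.04% of all genes.

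**Figure D4:**
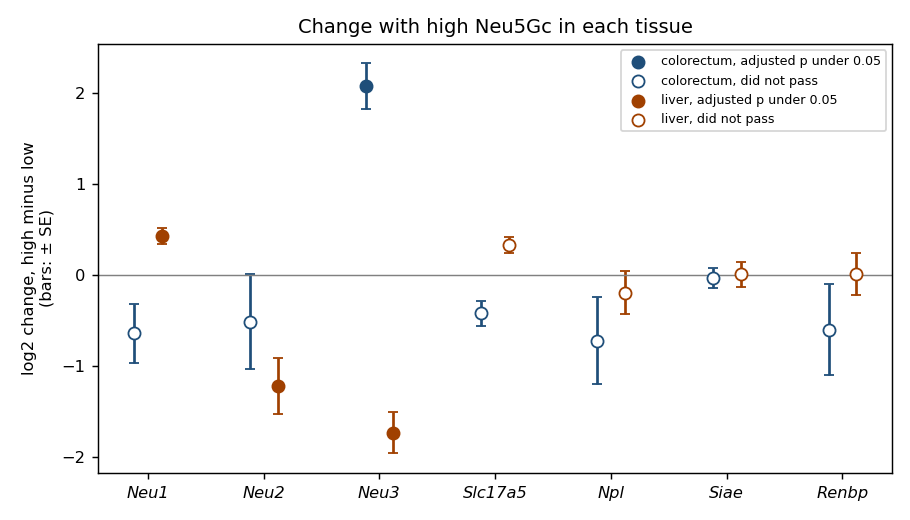
Log2 change with high Neu5Gc (high minus low) for each gene, with bars of 1 SE, in the colorectum (10 libraries) and the liver (6 libraries). Filled points passed at adjusted p under 0.05: Neu3 at 2.08 in the colorectum, and Neu1, Neu2 and Neu3 at 0.43, -1.22 and -1.73 in the liver.

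The order of levels, on the TPM scale, which corrects for transcript length, was alike at its top in all groups. Neu1 led with group medians of 108 and 55.3 TPM in the low and high colorectum and 14.4 and 16.2 in the low and high liver. Slc17a5 came next in the colorectum, with medians of 17 and 12.4 TPM, and its range stayed clear of that of Siae below it. In the liver Siae and Slc17a5 overlapped at medians of 9.79 to 11.1 TPM, and Siae also overlapped Neu1 in the low group. At the lower end the place of Neu3 changed. It was last in the low colorectum, at 1 TPM and overlapping Neu2. In the high colorectum it stood above Npl and Neu2, with 4.2 against 2.94 and 1.42 TPM, and exceeded both in 6 of 6 libraries although its range overlapped that of Npl. It was last again in the low liver (1.35 TPM, overlapping Npl) and in the high liver (0.392 TPM, separate from Neu2 above it).

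Between tissues at low Neu5Gc, Neu1 stood apart with 40.3 to 146 TPM in the colorectum against 13.2 to 14.8 in the liver. The log2 difference was 1.5 (SE 0.34, adjusted p = 0.00114, edgeR quasi-likelihood test) and it passed in all 25 fits, in a comparison where 67.1% of all genes passed and the TPM of 78.2% did not overlap. Values between tissues depend on the scaling: the median of all genes was 0.11 in the count fit and 0.78 on log2(TPM + 1). Less that median, Neu1 stood at 1.39 and 1.83, Neu2 at -1.72 and -1.25, Neu3 at -1.89 and -1.03 and Siae at -1.78 and -1.06. Slc17a5 was lower in the colorectum by counts (-0.56, adjusted p = 0.00173) and higher on log2(TPM + 1) (0.77, adjusted p = 3.2e-04), so no direction is given for it. The count differences of Neu2 (-1.61, adjusted p = 0.0183), Neu3 (-1.78, adjusted p = 1.7e-05) and Siae (-1.66, adjusted p = 1.6e-08) passed, but not on log2(TPM + 1). Neu2 also missed without low colorectum library 2 (adjusted p = 0.0508) or low liver library 2 (0.0714). By counts, Npl at 0.17 (adjusted p = 0.78) and Renbp at 0.42 (adjusted p = 0.49) did not pass. Without low colorectum library 4 they passed by counts as lower in the colorectum, at -0.83 (adjusted p = 0.0218) and -0.69 (adjusted p = 0.0237). On log2(TPM + 1), with all libraries, they were higher in the colorectum, at 0.86 and 1.16, where the median of all genes was 0.78. No direction is given for Npl or Renbp either.

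A list of 22 lysosomal hydrolases and their activator proteins had a median log2 change of -0.12 in the colorectum, where that of all genes was -0.02. Arsb, arylsulfatase B, fell by 0.91 on the log2 scale (SE 0.27, adjusted p = 0.043), a call kept in only 2 of 10 fits that left out a library. The genes of the partners of Neu1 did not pass: Ctsa changed by 0.07 (SE 0.20, adjusted p = 0.841) and Glb1 by -0.25 (SE 0.18, adjusted p = 0.365). In the liver, Arsa, arylsulfatase A, alone of the 22 passed, which is 4.55% against 6.47% of all genes (it rose by 0.67 on the log2 scale, SE 0.14, adjusted p = 0.0268), a call kept in 1 of 6 fits that left out a library, while Ctsa (-0.27, SE 0.09, adjusted p = 0.116) and Glb1 (-0.24, SE 0.13, adjusted p = 0.307) did not pass.

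Of 17 genes of the lysosomal membrane and its control, 4 rose and 3 fell in the colorectum, which is 41.2% of the list against 15.5% of all genes, with a median of -0.02 as over all genes. In the liver 0 of the 17 passed, against 6.47% of all genes, by edgeR, with 6 at an unadjusted p under 0.05, and DESeq2's Wald test called 1 and limma-voom 0. Slc36a1, a proton-coupled amino acid exporter, rose 3.85-fold, from 12.7 to 18.8 TPM in the low to 43.2 to 82.7 in the high libraries (log2 change 1.95, SE 0.25, adjusted p = 7.4e-04). Ctns, the cystine exporter (0.79, adjusted p = 0.0015), and Npc2, a lumenal cholesterol carrier (0.93, adjusted p = 0.00218), rose as well, and both held in 10 of 10 fits that left out a library. Scarb2, a membrane protein that sorts glucocerebrosidase (-0.76, adjusted p = 0.00199), and Slc38a9, an arginine sensor (-1.26, adjusted p = 0.00286), fell and held in the same fits. Of the transcription factors of lysosomal genes, Tfeb rose (0.58, adjusted p = 0.0269, kept in 6 of 10 such fits) and Mitf fell (-1.04, adjusted p = 0.00966, kept in 10 of 10). The membrane genes thus changed in both directions, beside a sialic acid exporter that did not pass.

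Of 11 genes of amino sugar and mannose phosphate metabolism, 1 rose and 1 fell in the colorectum, with a median of -0.14. Their share of 18.2% was near the 15.5% of all genes. Nagk, the kinase that takes in the N-acetylglucosamine formed by Renbp, rose by 0.43 (SE 0.13, adjusted p = 0.0434), kept in 3 of 10 fits that left out a library. Pmm1, a phosphomannomutase, fell by 0.48 (SE 0.11, adjusted p = 0.0162), a call lost in 1 of 10 such fits, without low library 2 (adjusted p = 0.0565). In the liver Amdhd2, the deacetylase of N-acetylglucosamine 6-phosphate, rose by 0.60 (SE 0.13, adjusted p = 0.0268), kept in 2 of 6 such fits, and the other 10 did not pass, a share of 9.09% against 6.47% of all genes.

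The macrophage, a cell type rich in lysosomes, also differed between the liver groups in its transcripts. The 12 macrophage markers summed to 454 to 504 TPM in low-dose and 290 to 365 in high-dose liver libraries. Of these markers 6 fell and 1 rose, 58.3% against 6.47% of all genes. The TPM of 33.5% of all liver genes did not overlap between doses, and the median change of all liver genes on log2(TPM + 1) was -0.12. The fall was not particular to macrophages. Summed TPM of T cell, smooth muscle, B and plasma cell and epithelial markers was also lower without overlap in high-dose liver libraries. That of skeletal muscle markers was higher, and those of hepatocyte, neutrophil, kidney tubule and pancreatic acinar markers overlapped. Markers of Kupffer cells, the macrophages of the liver, summed to 230 to 274 TPM in low-dose and 174 to 219 in high-dose liver libraries. All 5 changed downward, but 0 of the 5 passed, against 6.47% of all genes. In the colorectum the 12 macrophage markers summed to 280 to 527 TPM in low-dose and 415 to 687 in high-dose libraries. There 2 rose, and that share of 16.7% was near the 15.5% of all genes. Epithelial markers summed to 7408 to 10582 TPM in low-dose and 10730 to 13884 in high-dose colorectum libraries, where 3 of 10 rose and 1 fell, 40% against 15.5% of all genes. Of 14 clock genes, a list added after values were seen, 6 rose and 3 fell in the liver, 64.3% against 6.47% of all genes. The part of any of these in the changes of the 7 genes was not tested.

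Genes whose levels followed each member most closely were taken over the 10 colorectum libraries by Pearson r on log2(CPM + 1) among 11921 genes. Nearest to Neu3 were Nxpe4 (0.982) and Plekhh1 (0.98), and nearest to Neu1 were Ces2c (0.975) and Espn (0.952). Slc17a5 was followed by Pkd2 and Ppp3cc (both 0.973). Npl was followed by Aldh5a1 (0.986) and Dync2li1 (0.985), Renbp by Tprkb and Eva1a (both 0.977), and Neu2 by Scrn2 (0.962) and Fbxo7 (0.958). For Siae the closest were Ubfd1 (0.894) and Crkl (0.887), lower values than for the other members. These values describe 10 libraries that share 2 dose groups and, for Npl, Renbp and Neu2, 1 library far from the rest, and they say nothing of shared control.

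**Figure D5:**
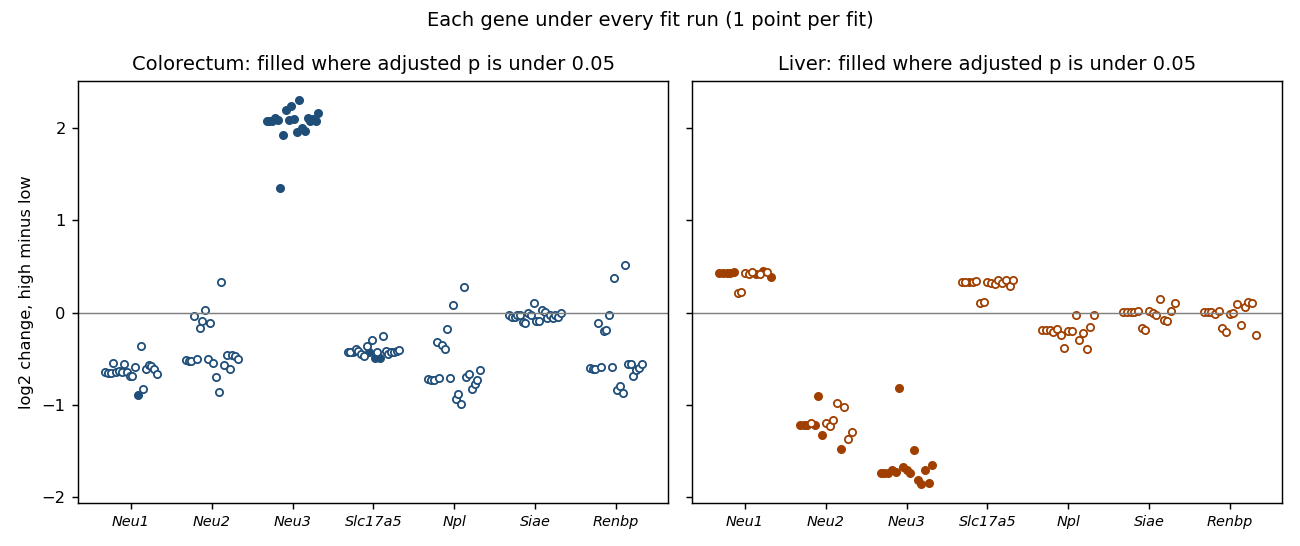
Log2 change with high Neu5Gc for each gene under every fit run, 20 in the colorectum and 15 in the liver, with 1 point per fit and filled points where adjusted p is under 0.05. Neu3 is filled throughout in both panels, at 1.35 to 2.30 and -1.85 to -0.81, while the points of Npl and Renbp in the colorectum cross 0.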

How the data were processed

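Bulk RNA-seq libraries of colorectum (4 low and 6 high Neu5Gc) and liver (3 and 3) were used. The authors deposited estimated counts per gene, which need not be whole, and TPM for the same libraries in a second table per tissue. RNA was taken up in Trizol and libraries were built with a NEBNext Ultra kit, per the labels' protocols. Reads were placed on GRCm39, per the submitters' processing notes. For the aligner, the quantifier, its annotation and the strandedness, nothing is given in the sources used here. Symbols came from GENCODE M21 (99.2% of 36118 IDs named) and promoter windows from RefSeq on GRCm38.p6, so no other coordinates are given.

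Estimated counts were rounded to whole numbers. Each tissue was fitted alone under R 4.3.3 by the two-sided quasi-likelihood test of edgeR 4.0.16, with its robust option, TMM scaling and the filterByExpr count filter, and Benjamini-Hochberg adjustment over all genes tested and a threshold of 0.05. The tissue contrasts came from 1 fit of 16 libraries with 4 groups. The biological coefficient of variation was 35.5% in the colorectum, 23.2% in the liver and 34.6% in the joint fit. The depth of 46.1 to 86.1 (1e6 counts) leaves counting error small beside that variation except for the low genes. These were Neu2, Neu3, Npl and Renbp, whose lowest rounded counts in a library were 21, 78, 107 and 130. The procedure was run on simulated counts with known changes, which did not model transcripts of other tissues in single libraries. Counts and TPM are bulk averages and give no cell type.

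The 7 members, the lists and the tests were chosen with earlier results of these data known, and the posterior HOX and clock lists were added after values were seen. Named genes are all members, Neu4, up to 4 called genes per list and direction, and the 2 genes closest to each member; Ctsa, Glb1 and the overlapping genes are named for their role or position. Alternatives were DESeq2 1.42.0 size factors and Wald test, limma-voom and limma 3.58.1 on log2(TPM + 1) and log2(TPM + 0.1), no count filter, all 16 libraries in 1 fit, a replicate block, no low colorectum libraries 3 and 4, and leaving out each library in turn. A gene that the naming rule selects is not reported here.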

Additional observations from a re-analysis of the deposited data

Results flagged for a closer look

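In 14 groups, the 4 low and the 6 high colorectum libraries for each gene, the highest and lowest value were compared with the rest by their gap over the range, where chance flags about 1 in 20 groups. Npl stood apart in low colorectum library 4 at 12.9 TPM, where the gap was 0.848 of the range. Renbp stood apart in the same library at 34.6 TPM, with a gap of 0.885 of the range. This library also held the kidney tubule transcripts, and their part in these values was not tested. Neu1 stood apart in high colorectum library 1 at 91.1 TPM, with a gap of 0.695 of the range, while the other 5 high libraries ran from 47.2 to 60.6 TPM.

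For 2 genes the change with high Neu5Gc differed between the tissues by the interaction contrast, colorectum minus liver. For Neu3 the difference was 3.83 on the log2 scale (adjusted p = 3.8e-05, edgeR). For Slc17a5 it was -0.74 (adjusted p = 0.0233, edgeR).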

How the results depend on the processing

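Neu3 kept its direction and passed in every alternative run for the colorectum, the liver and the difference between tissues. The number of genes called moved more. In the colorectum 2784 genes were called, 1726 on log2(TPM + 1) and 1762 on log2(TPM + 0.1). DESeq2's Wald test and the fit of all 16 libraries each called 2 members there, Neu3 and Slc17a5. In the liver 1004 genes were called, 1742 by the DESeq2 test and 446 in the fit of all 16 libraries, which kept 1 of 3 members. For the difference 1504 genes were called and 2352 by the DESeq2 test, and both TPM scales kept 1 of 2 members. Between tissues log2(TPM + 1) called 3 members and not 5. Rises made up 48.7% of liver calls and 14.2% and 13.8% on the 2 TPM scales, 50.7% against 67.4% and 70% for the difference, and 53.7% against 87.5% and 87.8% between tissues.

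Leaving out 1 library gave 1592 to 3654 genes and 1 to 3 members in the colorectum, 387 to 935 genes and 1 to 2 members in the liver, 825 to 2177 genes and 1 to 3 members for the difference, and 4 to 7 members between tissues. Such fits turned the sign of changes that had not passed: in the colorectum Neu2 (-0.86 to 0.33), Npl (-0.99 to 0.28), Siae (-0.09 to 0.03) and Renbp (-0.87 to 0.52), in the liver Siae (-0.09 to 0.15) and Renbp (-0.24 to 0.12), for the difference Npl (-0.81 to 0.48), Siae (-0.17 to 0.07) and Renbp (-0.88 to 0.53), and between tissues Npl (-0.83 to 0.47) and Renbp (-0.69 to 0.72). Without low colorectum libraries 3 and 4, Npl, Siae and Renbp turned to 0.08, 0.11 and 0.38 in the colorectum and to 0.29, 0.12 and 0.38 for the difference, and Npl and Renbp to -0.63 and -0.54 between tissues.

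Other settings turned values that had not passed. On log2(TPM + 1) and log2(TPM + 0.1), Siae was -0.17 and -0.19 and Renbp -0.17 and -0.21 in the liver, and Siae 0.07 and 0.08 for the difference, where Renbp was 0.03 on the second. Slc17a5 between tissues turned while passing, at 0.77 and 0.82. With limma-voom, Renbp was -0.01 in the liver, and Npl -0.23 and Renbp -0.05 between tissues. In the fit of all 16 libraries Siae and Renbp in the liver were both -0.00. The cause was not tested.

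With the replicate number as a block, 477 genes were called in the colorectum, 630 in the liver and 602 for the difference, with 1 member each, Neu3. Neu1 and Neu2 in the liver (adjusted p = 0.0757 and 0.0623, edgeR) and Slc17a5 for the difference (adjusted p = 0.0737, edgeR) no longer passed. Of the other genes named, Arsb, Ctns, Npc2, Tfeb, Scarb2, Mitf, Nagk and Pmm1 in the colorectum and Amdhd2 in the liver no longer passed under the block either, while Slc36a1, Slc38a9, Casd1 and Arsa did. The block turned Neu2 to 0.03 and Siae to 0.00 in the colorectum, Renbp to -0.01 in the liver, Npl to 0.04 for the difference, and Npl to -0.53 and Renbp to -0.37 between tissues. The numbers were not taken to pair samples in the main fits because no label says what they mark. Deviations of same-numbered libraries correlated at -0.10, -0.07, -0.03 and -0.06 in the colorectum. In the liver they correlated at 0.47, 0.28 and 0.07, all positive, and these values do not settle whether the numbers pair samples. Depth limits Neu2 most, with 21 counts in 1 library.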
